A study of Mus musculus with 12 samples.

Results

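Chromatin accessibility was compared between the F4/80-high and the CD11b-high macrophages of livers with diet-induced nonalcoholic steatohepatitis (NASH), a fatty liver disease with inflammation. An F4/80-high region was one with a peak in both F4/80-high peak lists (KC-N and KN-RM) and in neither CD11b-high list (Ly6CHi-RM and Ly6CLo-RM), and a CD11b-high region was the reverse. Peaks of the 4 lists that overlapped by at least 1 bp were merged, which gave 79241 regions. Of these, 2596 (3.28%) were F4/80-high regions and 11053 (13.9%) were CD11b-high regions, 13649 in all, and 27418 were held by all 4 lists.

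All cells were sorted from C57BL/6J mice and profiled by ATAC-seq, which marks open DNA by the places where a transposase can insert its adapters. KC-N were Tim4-positive and KN-RM Tim4-negative F4/80-high Kupffer cells from mice on the NASH diet. Ly6CHi-RM and Ly6CLo-RM were CD11b-high recruited liver macrophages with high or low Ly6C from mice on the same diet. Comparison lists came from Tim4-positive F4/80-high Kupffer cells of control-diet mice (KC-H) and from Ly6C-high blood monocytes of NASH-diet mice (Blood-Ly6CHi-NASH, here the blood list). Each of the 6 groups had 2 libraries and 1 deposited list made from both, so there was no replicate error between lists, and no comparison has a test. All 4 liver populations of the contrast went through perfusion and enzymatic digestion with flavopiridol, a transcription inhibitor, per the labels. Diet duration, age and sex were not given in the sources used here.

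Kupffer cells are the resident macrophages of the liver sinusoids; they clear particles, dying cells, iron and lipid from blood. When resident cells are lost in steatohepatitis, monocytes enter the liver, and some take up positions and surface markers of Kupffer cells while others stay distinct. F4/80 (Adgre1) is an adhesion receptor abundant on Kupffer cells, CD11b (Itgam) is an integrin chain abundant on monocytes and their recent progeny, and Tim4 (Timd4) is a receptor for dying cells that marks long-resident Kupffer cells.

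Promoters overlapped by regions of either kind are shown first because they put the contrast at genes whose products define or serve these cells. Each sequence is the stretch of the region upstream of an annotated gene start, read 5′ to 3′ on the gene's strand from the RefSeq promoter table of GRCm38.p6. Capitals mark exact matches, on either strand, to the letters of a motif searched: AP-1 (TGANTCA), the PU.1 and ETS core (GAGGAAG), RUNX (TGTGGTT), IRF (GAAANNGAA) or a nuclear receptor element (AGGTCA). A match is a match of letters only. The first 6 are F4/80-high: Cd5l (a secreted macrophage protein that limits cell death), Clec1b (the podoplanin receptor CLEC-2), Axl (a receptor for uptake of dying cells), the matrix metalloproteinases Mmp13 and Mmp12, and Fabp7 (a fatty acid binding protein). The last are CD11b-high: Runx3 (a transcription factor of blood cells) and Ly6c2 (part of the Ly6C antigen used for the sort), each at a start inside the gene. Part of the Ly6c2 stretch, with its last GAGGAAG, lies inside the gene, whose outer end is at 75112066.
Cd5l, chr3:87357768-87357880, plus strand: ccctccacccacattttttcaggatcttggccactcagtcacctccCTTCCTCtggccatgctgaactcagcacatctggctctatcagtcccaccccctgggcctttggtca
Clec1b, chr6:129397152-129397296, plus strand: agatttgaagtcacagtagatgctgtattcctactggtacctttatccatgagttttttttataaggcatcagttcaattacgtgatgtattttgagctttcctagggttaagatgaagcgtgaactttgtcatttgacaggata
Axl, chr7:25788734-25788900, minus strand: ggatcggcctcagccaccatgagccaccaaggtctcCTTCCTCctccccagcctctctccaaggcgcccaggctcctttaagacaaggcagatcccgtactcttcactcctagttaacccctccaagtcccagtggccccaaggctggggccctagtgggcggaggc
Mmp13, chr9:7272331-7272513, plus strand: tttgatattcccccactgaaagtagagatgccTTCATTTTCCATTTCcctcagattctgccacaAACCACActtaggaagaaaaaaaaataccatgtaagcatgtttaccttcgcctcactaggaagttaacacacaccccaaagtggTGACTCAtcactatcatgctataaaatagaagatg
Mmp12, chr9:7347257-7347373, plus strand: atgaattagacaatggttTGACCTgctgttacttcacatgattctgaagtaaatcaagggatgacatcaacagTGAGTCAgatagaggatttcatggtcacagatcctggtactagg
Fabp7, chr10:57784728-57784922, plus strand: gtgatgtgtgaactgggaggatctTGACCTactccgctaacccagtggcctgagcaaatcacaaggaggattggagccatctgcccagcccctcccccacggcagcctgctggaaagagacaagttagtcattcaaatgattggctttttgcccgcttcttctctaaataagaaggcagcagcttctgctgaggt
Runx3, chr4:135152368-135152544, plus strand: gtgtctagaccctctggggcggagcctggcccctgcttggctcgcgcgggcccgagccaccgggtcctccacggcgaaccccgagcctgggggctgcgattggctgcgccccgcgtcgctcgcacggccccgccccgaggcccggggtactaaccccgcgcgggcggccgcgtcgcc
Ly6c2, chr15:75111938-75112115, minus strand: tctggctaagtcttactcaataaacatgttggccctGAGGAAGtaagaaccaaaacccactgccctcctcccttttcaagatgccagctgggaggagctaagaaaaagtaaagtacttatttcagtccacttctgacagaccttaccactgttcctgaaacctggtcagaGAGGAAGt

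The normalised tag count of these promoter regions, a signal scaled by the authors, stood at 55.3 (KC-N) and 24.6 (KN-RM) for Cd5l, and at 41.8 and 24.6 for Mmp12. It was 104 in Ly6CHi-RM and 47.7 in Ly6CLo-RM at Ly6c2, and 68.2 and 34.9 at Runx3. Of the 6 F4/80-high promoter regions shown, the Mmp12 region was the one without a peak in control-diet Kupffer cells, and none had a peak in blood monocytes. The Clec1b promoter region was not assigned to Clec1b under the gene rule given below, so Clec1b has no F4/80-high region in the gene counts. The Runx3 and Ly6c2 promoter regions had the opposite pattern, with a peak in blood and none in KC-H. Runx3 also had a peak at its outer start in all 4 NASH liver lists, so the outer start itself showed no contrast. Other CD11b-high regions of Runx3 lay inside the gene and 34.5 to 66.8 kb upstream of it. Ly6c2 has near-identical neighbours, and how reads that fit several copies were handled was not given in the sources used here.

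Lengths of the lists differed, which bears on every count. KC-N held 50550 peaks and KN-RM 34293, while Ly6CHi-RM held 61492 and Ly6CLo-RM 54621. The median tag count per peak was 26.9 and 19.6 in the F4/80-high lists and 46.4 and 44.1 in the CD11b-high lists. Absence from a list says only that no peak was called there, and library depth was not given in the sources used here. Each main count is therefore given beside the count from equal-length lists, in which every list was reduced to its 34293 best-scored peaks. The cut removed called peaks from every list but KN-RM. An F4/80-high region of equal-length lists can thus hold a peak of a CD11b-high list as deposited. With the cut, F4/80-high regions rose from 2596 to 4221, so equal-length counts describe a different set of regions from the one defined above.

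CD11b-high regions outnumbered F4/80-high regions in whole lists, and the order turned with equal-length lists. With equal-length lists, 4221 of 50514 regions (8.36%) were F4/80-high and 3693 (7.31%) were CD11b-high. As deposited, 6984 regions were in KC-N alone and 646 in KN-RM alone, against 10275 in Ly6CHi-RM alone and 5565 in Ly6CLo-RM alone. The 4 pairs that took 1 list from each sort, and no other list, held fewer regions than either same-sort pair. KC-N and Ly6CHi-RM alone shared 2375 regions and KC-N and Ly6CLo-RM 1137. For KN-RM these counts were 233 and 147.

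**Figure D1:**
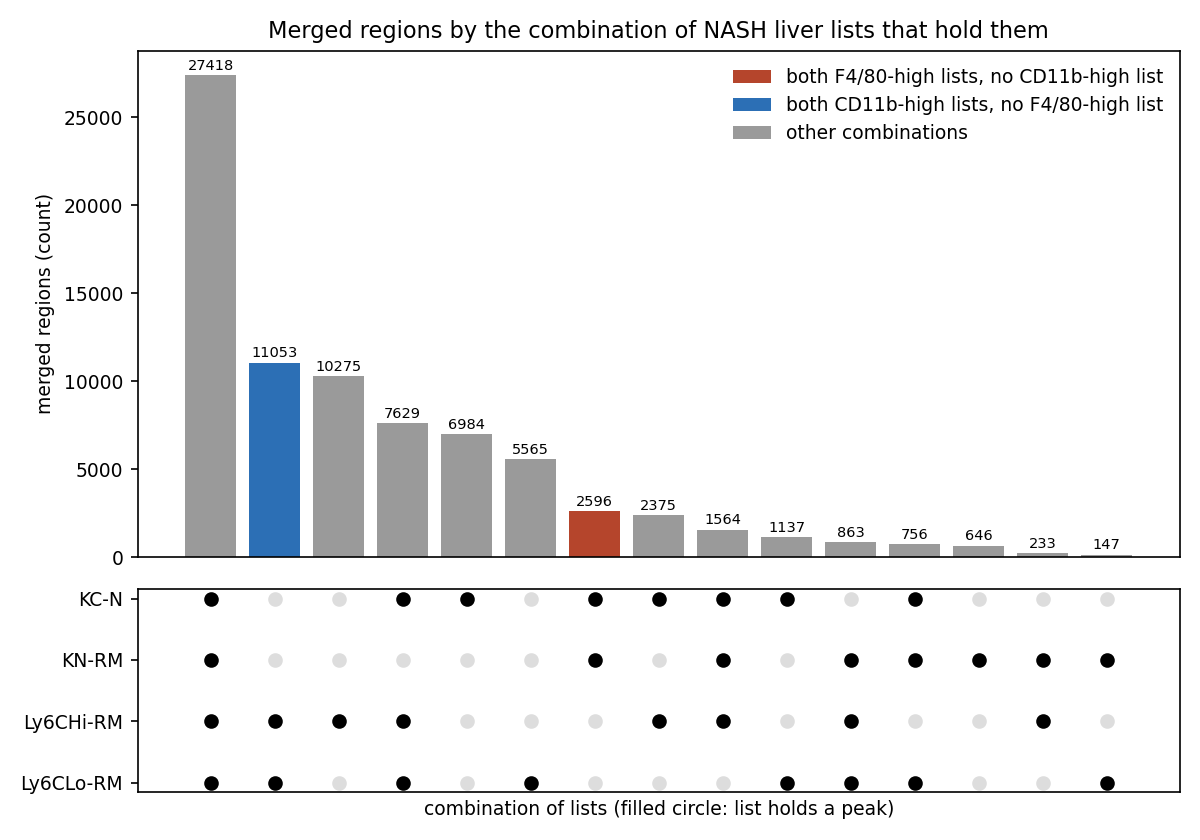
Number of merged regions (vertical axis, count) held by each of the 15 combinations of the 4 NASH liver lists; filled circles under a bar name the lists that hold the regions. The F4/80-high pair (2596 regions) and the CD11b-high pair (11053) are coloured, and regions of all 4 lists (27418) form the tallest bar.

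F4/80-high regions were found more often in Kupffer cells of mice on the control diet than CD11b-high regions were, and CD11b-high regions more often in blood monocytes, both from lists that had no part in choosing the regions. Of the F4/80-high regions, 2261 (87.1%, 95% Wilson interval 85.8% to 88.3%) had a peak in KC-H and 393 (15.1%, 13.8% to 16.6%) had one in blood. Of the CD11b-high regions, 3950 (35.7%, 34.8% to 36.6%) had a peak in KC-H and 9355 (84.6%, 84.0% to 85.3%) had one in blood. Over all merged regions the shares were 65.5% in KC-H and 73.3% in blood, and over regions of all 4 lists they were 96.1% and 95.8%. The intervals cover counting error only and treat neighbouring regions as independent.

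Taken by both further lists at once, 1903 F4/80-high regions (73.3%) were in KC-H and not in blood, and 35 (1.35%) were in blood and not in KC-H. Of the CD11b-high regions, 5749 (52.0%) were in blood and not in KC-H, and 344 (3.11%) were in KC-H and not in blood. The 2 kinds had similar shares in neither list, with 300 F4/80-high (11.6%, 10.4% to 12.8%) and 1354 CD11b-high regions (12.3%, 11.7% to 12.9%). These are the regions seen in NASH liver macrophages of 1 sort and not in either further population. With all lists of equal length, 72.7% of F4/80-high regions were in KC-H and 8.96% in blood, and 16.9% of CD11b-high regions were in KC-H and 74.4% in blood. The direction was the same; all 4 shares were lower. When the KC-H and blood lists alone were cut to their 34293 best-scored peaks, they held 63.5% and 2.20% of F4/80-high regions and 4.39% and 36.4% of CD11b-high regions, so that most CD11b-high regions were then in neither.

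**Figure D2:**
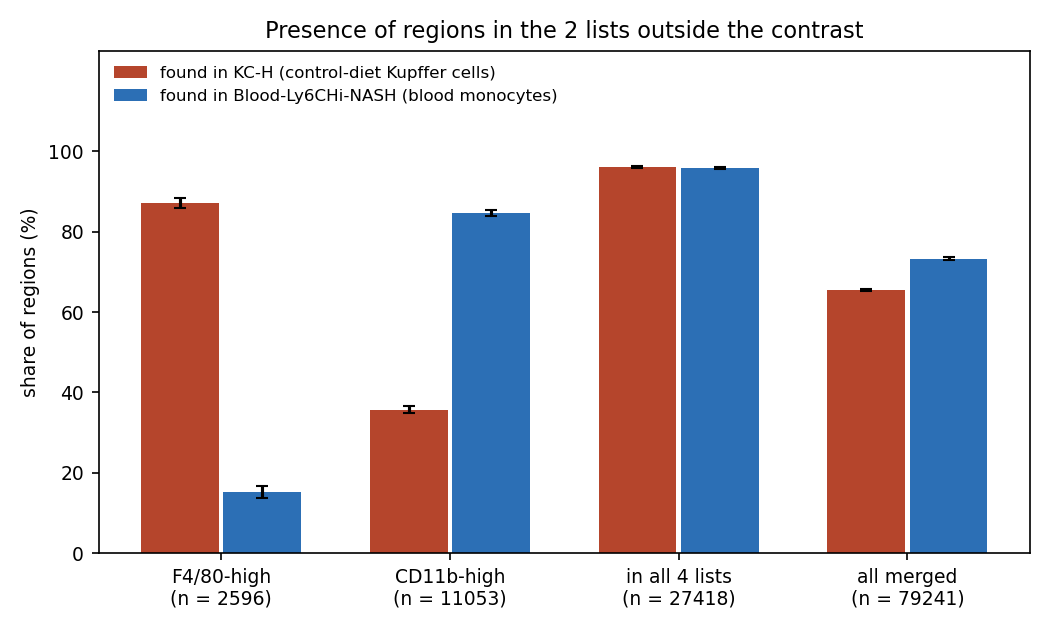
Share of regions (vertical axis, %) with a peak in KC-H or in the blood list, for F4/80-high, CD11b-high, shared and all merged regions, with 95% Wilson error bars for counting error. F4/80-high regions stand at 87.1% in KC-H and 15.1% in blood, and CD11b-high regions at 35.7% and 84.6%.

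Pairs of lists that crossed the sort followed the blood list by Ly6C. Regions shared by KC-N and Ly6CHi-RM alone were in blood in 82.5% of cases, and those shared by KN-RM and Ly6CHi-RM alone in 72.5%. With Ly6CLo-RM as partner the shares in blood were 31.0% for KC-N and 36.7% for KN-RM. In KC-H, regions shared with Ly6CHi-RM and with Ly6CLo-RM stood at 73.4% and 62.1% for KC-N, and at 61.8% and 55.8% for KN-RM, a smaller gap.

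Both kinds of region lay away from gene ends more often than shared regions did. A protein-coding gene began or ended within 1 kb of 11.1% of F4/80-high regions (95% Wilson interval 9.98% to 12.4%) and 14.1% of CD11b-high regions (13.5% to 14.8%), against 38.7% of regions of all 4 lists. The median distance to a gene end was 15.1, 10.1 and 3.12 kb in the same order. A gene contained the centre of 60.4% of F4/80-high and 54.2% of CD11b-high regions. A RefSeq promoter window (250 bases before to 50 after a gene start) was overlapped by 108 F4/80-high regions (4.16%), by 599 CD11b-high regions (5.42%) and by 28.1% of shared regions. Positions within exons, introns and untranslated regions were not analysed here.

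Chromosome X held 6 F4/80-high regions (0.231%, 0.106% to 0.503%) and 293 CD11b-high regions (2.65%, 2.37% to 2.97%), beside 1.80% of all merged regions. The same chromosome held 1.60% of the peaks of KC-N and 1.37% of KN-RM, against 1.99% of Ly6CHi-RM and 1.92% of Ly6CLo-RM. The sex of the mice in each group was not given in the sources used here, and its part in these shares was not tested.

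Within their own lists, the regions of both kinds scored lower than shared regions. Membership depends on these scores, so they are given as description. F4/80-high regions stood at a median score percentile of 48.9 (KC-N) and 25.3 (KN-RM), with median tag counts of 26.4 and 14.4. CD11b-high regions stood at the 34.1 percentile in Ly6CHi-RM and the 27.0 percentile in Ly6CLo-RM, with median tag counts of 33.3 and 28.8. The corresponding percentiles of regions held by all 4 lists were 71.0, 57.8, 76.2 and 73.1. Tag counts reached 232 in KC-N at an F4/80-high region and 529 in Ly6CHi-RM at a CD11b-high region.

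**Figure D3:**
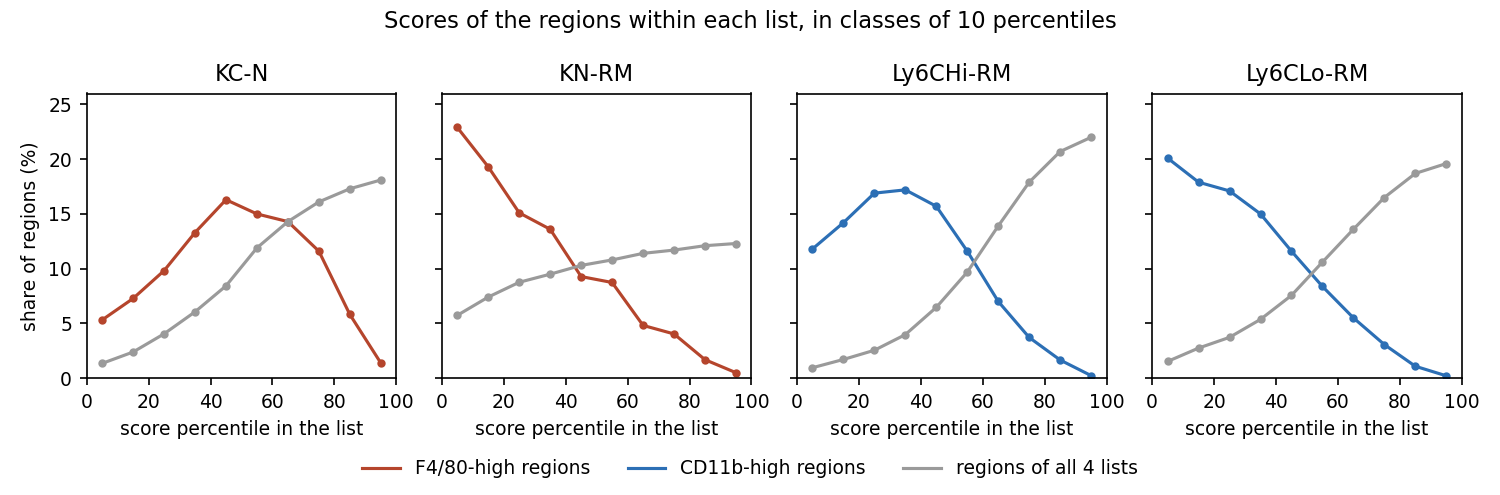
Share of regions (vertical axis, %) in each class of 10 score percentiles (horizontal axis) of the 4 NASH liver lists, for F4/80-high, CD11b-high and shared regions. Shared regions lean to high scores in every list, while 22.9% of F4/80-high regions lie in the lowest class of KN-RM and 20.1% of CD11b-high regions in the lowest class of Ly6CLo-RM.

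Overlap alone separated some regions from a close neighbour. An opposing peak centre lay within 1000 bp of 723 F4/80-high regions (27.9%) and of 2055 CD11b-high regions (18.6%). It lay 250 bp or less away for 49 and 80 regions, just inside the rule. Just outside it, an overlap of 10 bp or less with an opposing peak kept out 7 and 13 regions. Without the regions that had such a neighbour within 1000 bp, 1873 F4/80-high and 8998 CD11b-high regions were left.

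Regions were assigned to the protein-coding gene that contained their centre, or else to the nearest within 100 kb, and larger genes and gene deserts collect more of them. Of 14963 genes with any merged region, 985 (6.58%) had more F4/80-high than CD11b-high regions and 5519 (36.9%) had more CD11b-high regions. With equal-length lists these were 2163 (16.3%) and 2132 (16.1%) of 13272 genes. F4/80-high regions alone were found at 847 genes, CD11b-high regions alone at 5183, and both kinds at 849. Over all genes, 18.7% of the regions of both kinds were F4/80-high, and 52.9% with equal-length lists; these shares, and those of genes above, are the background for each list. The 22 gene lists below were chosen with earlier results of these data known, so a list's count describes it and is no evidence of its direction.

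The genes of the sort markers showed little or no contrast in F4/80 and a modest one in CD11b and Ly6C. Adgre1 (chr17:57358581-57483529) had 4 peaks in KC-N, 5 in KN-RM, 6 in Ly6CHi-RM, 5 in Ly6CLo-RM and no region of either kind. Itgam had 5, 5, 10 and 9 peaks in the same order and 3 CD11b-high regions, all in the blood list. The leading one, chr7:128050769-128051021 and 11.7 kb outside the gene, had tag counts of 104 and 38.0 in the CD11b-high lists. Ly6c1 had 2 CD11b-high regions and Ly6c2 had 1, both genes without an F4/80-high region in whole lists. With equal-length lists Ly6c2 had 2 F4/80-high regions and 1 CD11b-high region, so its direction turned. Both F4/80-high regions appeared only after the cut.

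Timd4 peaks were nearly all in the control-diet list, with 17 in KC-H. There was 1 in KC-N, 1 in Ly6CLo-RM and none in KN-RM or Ly6CHi-RM. Marco, a scavenger receptor of Kupffer cells, had 7 peaks in KC-N but none in KN-RM (15 in KC-H), and so no F4/80-high region. Vsig4, a complement receptor, Nr1h3, the nuclear receptor LXR-alpha, Spic, a transcription factor of iron-handling macrophages, and Trem2, a lipid receptor of macrophages, also had no region of either kind.

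Some other Kupffer cell genes carried the contrast, Cd5l and Clec4f most of it. Of 20 genes of the Kupffer identity list, 5 had more F4/80-high regions (6.58% of all genes did) and 2 more CD11b-high regions (36.9% of all genes). The other 13 had equal numbers or none. Those with more CD11b-high regions were Kcna2 (1 F4/80-high and 3 CD11b-high) and Cd163 (0 and 2). The list held 18 F4/80-high and 5 CD11b-high regions in whole lists and 18 and 1 in equal-length lists. All 18 F4/80-high regions were in KC-H (95% Wilson interval 82.4% to 100%) and none was in blood. Of all F4/80-high regions, 87.1% were in KC-H, a share inside that interval, and 15.1% were in blood.

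Cd5l (chr3:87357881-87371074) had 13 and 10 peaks in KC-N and KN-RM, 4 in Ly6CHi-RM, 1 in Ly6CLo-RM, 24 in KC-H and 5 in blood. It had 6 F4/80-high regions and no CD11b-high region. They fell in 2 groups, 3 of them at the gene start and the others 20.6 to 27.9 kb upstream. The promoter region printed above had the highest tag counts of the 6, and the next, chr3:87356659-87356930, had 21.6 and 17.3.

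Clec4f, a lectin receptor restricted to Kupffer cells, had 7, 5, 1 and 0 peaks across the 4 lists and 18 in KC-H. All of its 5 F4/80-high regions lacked an opposing peak centre within 1000 bp. The leading one lay 12.5 kb from the gene at chr6:83631908-83632135, with tag counts of 54.3 and 27.7. Id3, an inhibitor of DNA-binding helix-loop-helix factors needed by Kupffer cells, had 3 F4/80-high regions, of which 1 was left when opposing centres within 1000 bp were not allowed. Fabp7 had 2 F4/80-high regions and no peak in either CD11b-high list or in blood.

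Receptors for the uptake of particles and dying cells leaned to the F4/80-high side. F4/80-high regions made up 69.7% of the regions of both kinds in the list (18.7% over all genes), and 93.3% with equal-length lists (52.9%). In the scavenger and uptake list, 7 of 17 genes had more F4/80-high and 2 more CD11b-high regions, with 23 and 10 regions of each kind and 28 and 2 in equal-length lists. Mertk (chr2:128698915-128803162), a receptor that engulfs dying cells, had 14, 11, 7 and 3 peaks across the 4 lists and 29 in KC-H. Its 6 F4/80-high regions spanned the promoter and the gene body, and the promoter region (chr2:128698712-128698954) had tag counts of 36.5 and 38.1. An opposing peak centre lay 557 bp from that promoter region. Stab2 (chr10:86841194-87008038), a scavenger receptor for hyaluronan that liver endothelial cells also carry, had 13 and 7 peaks on the F4/80-high side and 1 and 1 on the other. Its 6 F4/80-high regions were led by chr10:86885784-86885996 with tag counts of 65.9 and 31.5, and the nearest opposing centre was 58737 bp away. All F4/80-high regions of Mertk and Stab2 were in KC-H and none was in blood. Scarb1 (2 F4/80-high and 4 CD11b-high regions) and Cd163 (0 and 2) went the other way.

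Genes of lipid handling under LXR, nuclear receptors that sense oxidised cholesterol, had the same lean, with an F4/80-high share of 73.3% of regions (18.7% over all genes). Of 17 genes, 7 had more F4/80-high and 4 more CD11b-high regions, with 22 and 8 regions, and 24 and 0 in equal-length lists. Abca1, a cholesterol exporter, had 4 F4/80-high regions, led by chr4:53081972-53082189 with tag counts of 96.6 and 33.5. Abcg1, its partner exporter, also had 4, of which 3 were in KC-H and 1 in blood. Neither had a CD11b-high region. Mylip, which degrades the LDL receptor, had 2 F4/80-high regions and 1 CD11b-high region. Mertk belongs to this list as well as to the uptake list.

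The list of genes of Trem2-type lipid-associated macrophages leaned to the F4/80-high side against the background of all genes. Its F4/80-high share of regions was 57.1% (18.7% over all genes), and 85.0% with equal-length lists (52.9%). Of its 19 genes, 8 had more F4/80-high and 5 more CD11b-high regions (6.58% and 36.9% of all genes). Equal-length lists gave 13 and 2 (16.3% and 16.1%). Hilpda, which blocks lipid droplet breakdown, had 3 F4/80-high regions, none of which was left without opposing centres within 1000 bp. Gpnmb, a membrane glycoprotein of these cells, had 1 CD11b-high region, and with equal-length lists 1 F4/80-high region in its place. Fabp5, a fatty acid binding protein, had 3 CD11b-high regions.

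Growth factor and matrix genes also held more F4/80-high regions, 20 against 7 (74.1% F4/80-high, beside 18.7% over all genes), with 18 and 2 in equal-length lists. In this list 7 of 18 genes had more F4/80-high and 3 more CD11b-high regions. Pdgfc, a growth factor for stellate cells and fibroblasts, had 7 F4/80-high regions, with 22 and 12 peaks on the F4/80-high side and 6 and 7 on the other. Its leading region lay 48.9 kb outside the gene at chr3:81262867-81263107, with tag counts of 47.6 and 14.6. Igf1, insulin-like growth factor, had 5 F4/80-high regions, all in KC-H and 1 also in blood. Mmp13 had 2 and Mmp12 had 1, each at the promoter shown above in 1 case. Fn1, fibronectin, was an exception with 3 CD11b-high regions.

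Among all genes, those with the most F4/80-high regions were Sfi1 (15), Frmd4a (13), Itga9 (12), Sema6d (10), Capzb (8), Wdfy3 (8), Dnmt3a (7), Pdgfc (7), Pkp4 (7) and Prex1 (7). Itga9, the integrin alpha-9 chain, had 34 and 26 peaks on the F4/80-high side, 15 and 14 on the CD11b-high side, 47 in KC-H and 11 in blood. Of its 12 F4/80-high regions, 10 were in KC-H and 1 was in blood, and 6 formed a stretch of 22.7 kb. The region chr9:118666142-118666375 had tag counts of 101.4 and 56.5 in the F4/80-high lists. Dnmt3a, a DNA methyltransferase, held the region with the best mean score rank of those with no opposing centre within 1000 bp (chr12:3894690-3894897, 88.0 and 43.8). A region at Sema6d, a semaphorin (chr2:124610335-124610571), had 122 and 45.0.

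Sfi1, a centrosome gene, stood apart from the others of that group. Of its 15 regions, 14 lay within 14.4 kb, and only 4 of the 15 were left without opposing centres within 1000 bp. Assignment to the nearest gene end gave Sfi1 a balance of -2, and so turned its direction. A further 29 F4/80-high regions lay within 53.0 kb of the unplaced sequence JH584304, of which 7 were left. Unplaced or unlocalised sequences held 34 F4/80-high regions and 1 CD11b-high region. These lists had 134 such peaks in KN-RM and 108 in KC-N, against 58 and 74 in the CD11b-high lists. No filter for repetitive DNA was applied here, and its part in these counts was not tested.

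**Figure D4:**
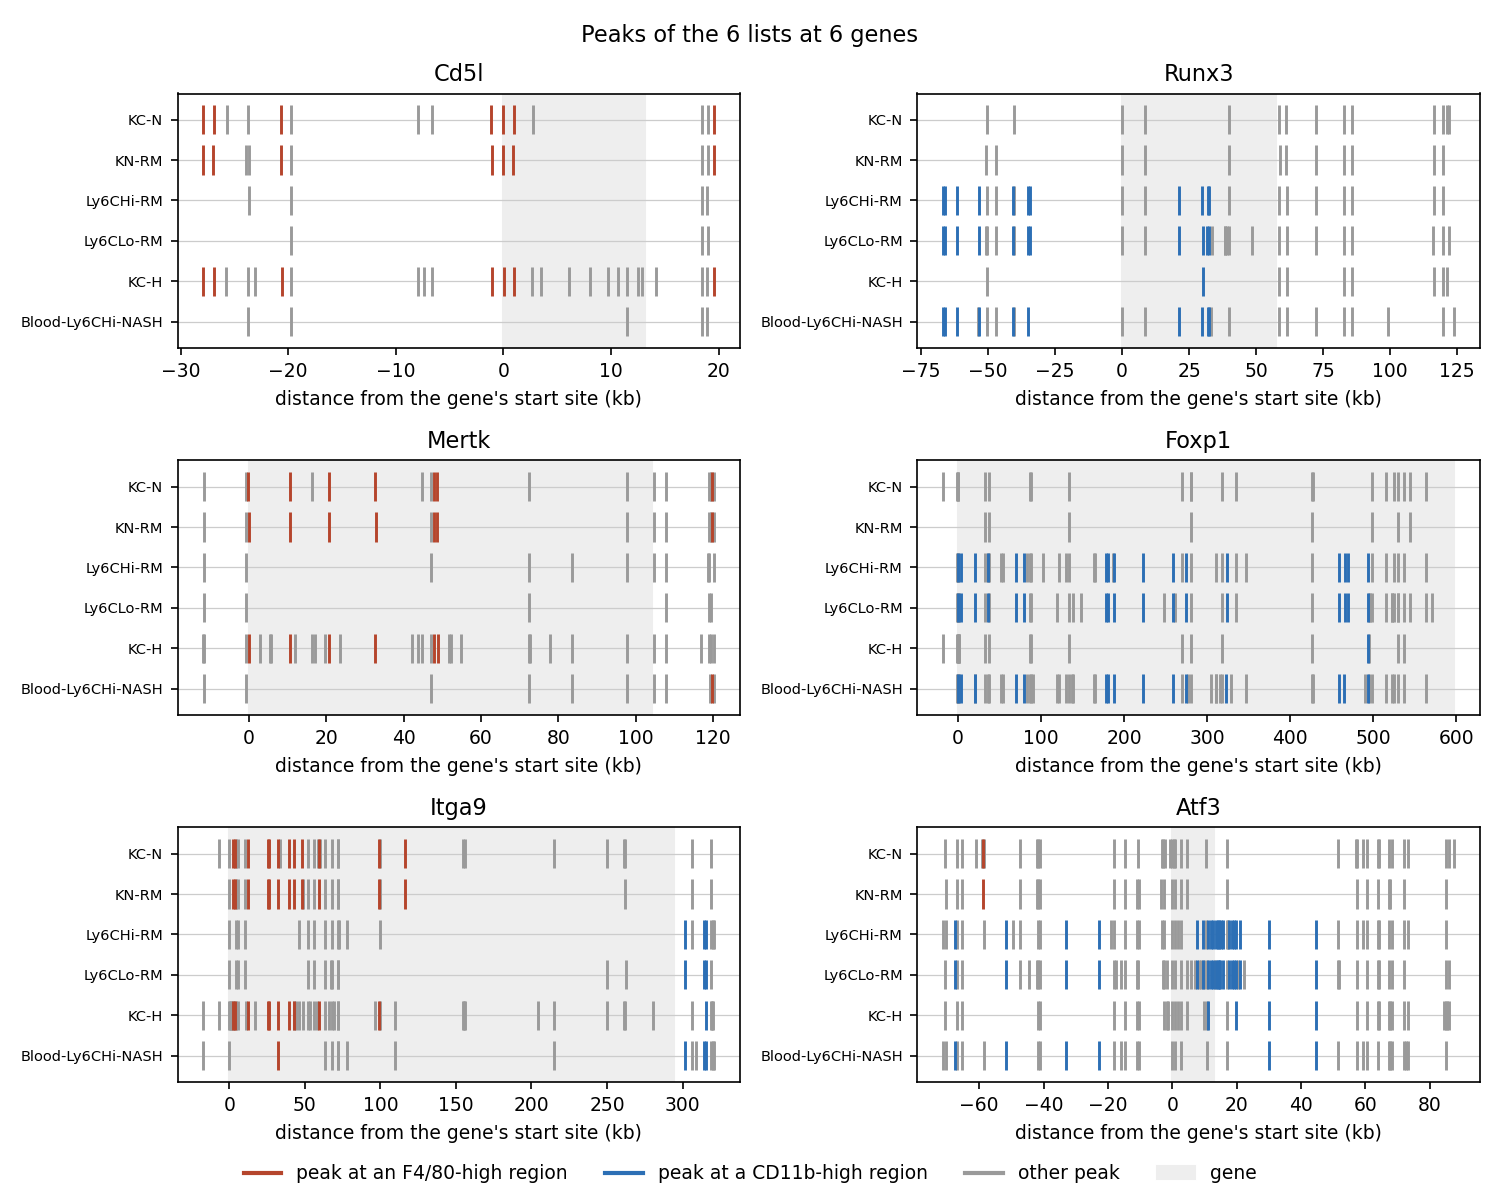
Peak centres of the 6 lists (one line each) at 6 genes, by distance from the gene's start site in the direction of transcription (horizontal axis, kb); grey shading is the gene, red and blue ticks are peaks at F4/80-high and CD11b-high regions. Red ticks recur in KC-H at Cd5l, Mertk and Itga9, blue ticks recur in blood at Runx3 and Foxp1, and most of the dense blue group at Atf3 is missing from blood.

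On the CD11b-high side, monocyte genes had 25 CD11b-high regions and no F4/80-high region in whole lists. Of 16 genes in the list, 13 had more CD11b-high regions and none had more F4/80-high regions (36.9% and 6.58% of all genes). Of the 25 regions, 96.0% were in blood (80.5% to 99.3%), an interval that holds the 84.6% of all CD11b-high regions. With equal-length lists the count was 4 of each kind, near the 52.9% F4/80-high share over all genes. Ccr2, the receptor that brings monocytes out of bone marrow, had 1 CD11b-high region with tag counts of 22.4 and 28.2. F13a1, a coagulation factor chain of monocytes, and Spn, the sialoglycoprotein CD43, had 3 each. Cx3cr1, the fractalkine receptor, had 1, also found in KC-H and blood.

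Transcription factors of the RUNX family had CD11b-high regions and no F4/80-high region in whole lists. Runx2 and Runx3 had 11 each and Runx1 had 6. Runx3 (chr4:135120645-135177990) had 8, 8, 20 and 26 peaks across the 4 lists, 4 in KC-H and 23 in blood. Of its 11 CD11b-high regions, 10 were in blood and 1 was in KC-H. The region 66.8 kb upstream, chr4:135053708-135053909, had tag counts of 142 in Ly6CHi-RM and 61.2 in Ly6CLo-RM. With equal-length lists Runx3 had 8 and Runx2 6 CD11b-high regions, and neither had an F4/80-high one. Runx1 then had 1 F4/80-high region and 2 CD11b-high regions.

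The myeloid transcription factor list as a whole was near the background, with an F4/80-high share of 23.4% (18.7% over all genes) and 51.9% with equal-length lists (52.9%). It held 15 F4/80-high and 49 CD11b-high regions, with 3 of 17 genes leaning to the first and 12 to the second, and 27 and 25 regions in equal-length lists. Zeb2, a repressor that maintains Kupffer cell identity, had 4 F4/80-high regions and 1 CD11b-high region. Irf8, a factor of monocyte development, had 3 and 1. Cebpb, a factor of inflammatory and Ly6C-low monocytes, had 4 and 5.

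Over all genes, Foxp1 had the most CD11b-high regions (17), followed by Pde4d (16), Btg1 (15), Arhgap26, Gfod1 and St8sia1 (14 each), and Bcl11a, Ptpre, Tiam1 and Tspoap1 (13 each). None of these 10 had an F4/80-high region in whole lists. Foxp1 (chr6:98925342-99522746), a forkhead factor that falls as monocytes become macrophages, had 24, 8, 49 and 50 peaks across the 4 lists, 20 in KC-H and 59 in blood. Of its 17 regions, 15 were in blood and 1 in KC-H. Bcl11a, a repressor of immature blood cells, had 2, 2, 19 and 22 peaks, with 26 in blood and 3 in KC-H. With equal-length lists Foxp1 had 9 and Bcl11a 5 CD11b-high regions, and neither had an F4/80-high one.

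Integrin and adhesion genes split by member, and the F4/80-high share of their regions was 38.9% (18.7% over all genes). Over the list there were 21 F4/80-high and 33 CD11b-high regions, with 3 of 18 genes leaning to the first and 10 to the second, and 29 and 8 regions in equal-length lists. Itga9 (12 and 1) and Itgb5 (5 and 1), the integrin beta-5 chain, held most of the F4/80-high regions. Itgb3 (chr11:104608000-104670476), the beta-3 chain, had no peak in KC-N, KN-RM or KC-H, 10 in Ly6CHi-RM, 6 in Ly6CLo-RM and 9 in blood. Its 5 CD11b-high regions were led by chr11:104647583-104647796 with tag counts of 93.2 and 25.7. Selplg, the selectin ligand that lets leukocytes roll, had 7 CD11b-high regions.

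Of the dendritic cell markers, Flt3 held most of the contrast. Flt3 (chr5:147330741-147400489), a growth factor receptor of dendritic cell precursors, had 1, 1, 11 and 11 peaks across the 4 lists, 1 in KC-H and 12 in blood. All of its 6 CD11b-high regions were in blood, and chr5:147363148-147363353 had tag counts of 122 and 93.7. The dendritic cell list held 11 CD11b-high regions and 1 F4/80-high region, with 5 and 1 of 10 genes leaning each way (36.9% and 6.58% of all genes). Flt3 held 6 of the 11, and Xcr1, Clec9a and Cd209a, markers of dendritic cell subsets, held none. Itgae, an integrin chain of some dendritic cells, had 1 F4/80-high region. Equal-length lists gave 4 and 3 regions. The part of dendritic cells in the CD11b-high sort was not tested.

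CD11b-high regions at immediate-early genes were found in blood less often than CD11b-high regions in general, and members differed. The AP-1, EGR and KLF list held 48 CD11b-high and 7 F4/80-high regions, and 12 of 16 genes had more CD11b-high regions against 2 with more F4/80-high ones (36.9% and 6.58% of all genes). By regions the list was near the background, at 12.7% F4/80-high beside 18.7% over all genes. Of the 48 regions, 41.7% were in blood (95% Wilson interval 28.8% to 55.7%), beside 84.6% of all CD11b-high regions. Regions at Atf3, Fos and Fosb lay in stretches of neighbours, so they are not independent and the interval is likely too narrow. Atf3 (chr1:191170296-191183333), a stress-induced repressor, had 21, 15, 29 and 37 peaks across the 4 lists, and 3 of its 12 CD11b-high regions were in blood and 1 in KC-H. The stretch with the most CD11b-high regions in the genome, 16 within 22.7 kb, ran through Atf3 and its neighbour Fam71a. Fosb, a FOS family subunit of AP-1, had 6 CD11b-high regions, 3 of them in KC-H and none in blood. Fos itself had 9 CD11b-high and 3 F4/80-high regions, and Klf6 had 6, of which 2 were in blood. Elsewhere in the list blood held more of the regions: 5 of 9 at Fos, 3 of 4 at Egr2, a zinc finger factor, and 2 of 3 at Klf4, a factor of monocyte differentiation.

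Equal-length lists changed the balance of this group: they gave 14 F4/80-high and 12 CD11b-high regions, a share of 53.8% beside 52.9% over all genes. Atf3 then had 2 and 4 regions and Klf6 3 and 2, so the direction of Klf6 turned.

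Absence from blood was also seen at other genes. Ranked by CD11b-high regions absent from blood, an order chosen after the values were seen, Btg1 led with 14 of 15, and Atf3 with 9 of 12 and Tspoap1 with 9 of 13 were also near the top. Btg1, an antiproliferative gene, had 13 of its regions in 1 stretch of 11.7 kb and 13 in neither further list. Dusp1, a phosphatase induced by stress, had 5 of 6 absent from blood, and Actg1, a cytoskeletal actin, 4 of 4. Tnfaip3, an inhibitor of NF-kappaB signalling, had 3 CD11b-high regions that neither KC-H nor blood held, the leading one at chr10:19047416-19047706 with tag counts of 32.3 and 57.5. With equal-length lists Tnfaip3 had 2 F4/80-high regions and no CD11b-high one. The blood monocytes were peripheral cells and not liver cells, per the labels, and the part of tissue handling in these regions was not tested.

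F4/80-high regions absent from control-diet Kupffer cells were few and spread over many genes. No gene had more than 3 of the 335. The uncharacterised gene 1600014C23Rik had 3, and Itga9, Pparg, Cd47 and Slco2b1 were among those with 2. Pparg, a nuclear receptor of lipid storage, had 4 F4/80-high regions, of which 2 were in KC-H and none in blood. Cd47, the signal against being engulfed, had 6, of which 4 were in KC-H and 1 in blood. These genes were picked after their values were seen.

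In whole lists, signalling genes were near the background or above it in F4/80-high share (18.7% over all genes). The TGF-beta, BMP and Notch list held 10 F4/80-high and 32 CD11b-high regions (23.8% F4/80-high), with 5 and 13 of 22 genes leaning each way, and 15 and 18 regions in equal-length lists (45.5%, beside 52.9%). Smad3, which carries TGF-beta signals to the nucleus, and Rbpj, the DNA-binding factor of Notch signalling, had 5 CD11b-high regions each. All 5 of Smad3 and 3 of Rbpj were in blood. Smad3 was led by chr9:63850372-63850610, 92.5 kb from the gene, with 205 in Ly6CHi-RM and 68.6 in Ly6CLo-RM.

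Chemokine and inflammatory genes held fewer regions. The chemokine list had 7 F4/80-high and 22 CD11b-high regions (24.1% F4/80-high), with 2 and 9 of 21 genes leaning each way, and 12 and 9 regions in equal-length lists. Cxcr4, the receptor that holds monocytes in marrow, had 6 CD11b-high regions, 5 of them in blood. Cxcl1, a neutrophil attractant, was on the other side with 3 F4/80-high regions, all in KC-H and none in blood. The NF-kappaB list had 10 and 23 regions (30.3%), with 4 and 7 of 19 genes leaning each way, and 14 and 7 in equal-length lists. Nfkbiz, an inducible NF-kappaB cofactor, had 5 CD11b-high regions, 2 of them in blood. Antigen presentation genes had 6 and 12 regions (33.3%), with 2 and 6 of 12 genes leaning each way, and 4 and 1 in equal-length lists. Iron and haem genes had 2 and 4 regions (33.3%), with 2 and 3 of 15 genes leaning each way, and 15 and 3 in equal-length lists.

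**Figure D5:**
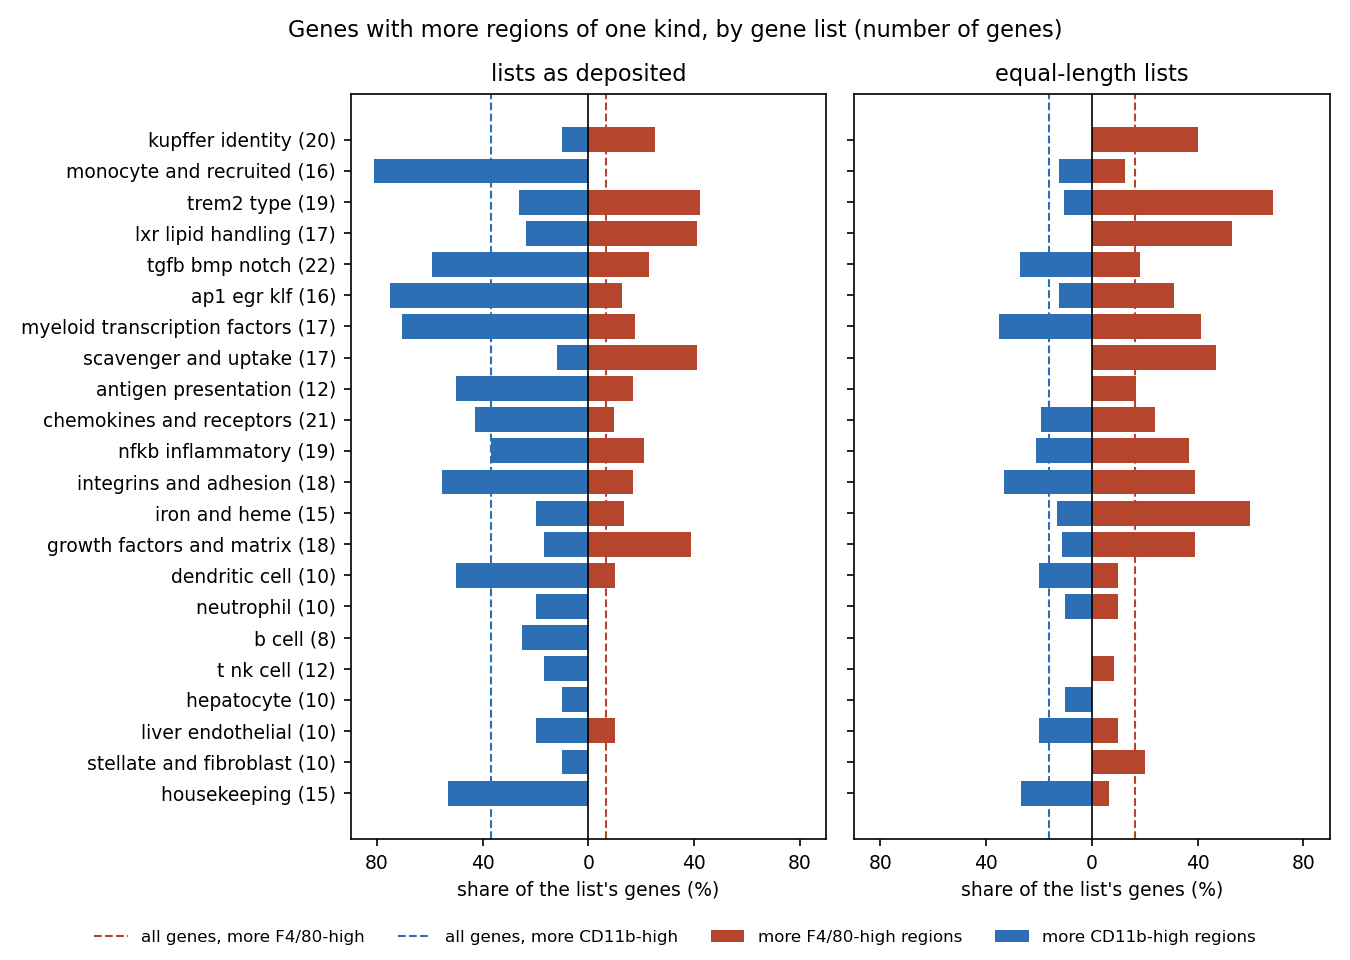
Share of the genes of each list (horizontal axis, %; number of genes in parentheses) with more F4/80-high regions (right) or more CD11b-high regions (left), for lists as deposited and for equal-length lists; dashed lines give the shares over all genes. The monocyte and AP-1 lists reach far left in the first panel only, while the Kupffer identity, uptake and LXR lists reach past the dashed line to the right in both.

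Markers of other cells of the liver held few regions of either kind. In F4/80-high and CD11b-high regions, the neutrophil list had 0 and 2, the B cell list 0 and 2, the T and NK cell list 0 and 4, the hepatocyte list 1 and 2, and the stellate and fibroblast list 2 and 4. The endothelial list had 7 and 3, and Stab2 held 6 of the 7. Housekeeping genes held 2 F4/80-high and 26 CD11b-high regions (7.14% F4/80-high, beside 18.7% over all genes), 8 of 15 genes had more CD11b-high regions and none more F4/80-high ones, and equal-length lists gave 1 and 11 (8.33%, beside 52.9%). Ywhaz, a phosphoserine-binding adaptor, held 7 of the 26. Of the 26 regions, 61.5% were in blood (42.5% to 77.6%), beside 84.6% of all CD11b-high regions.

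In promoters, the letters of some motifs were found at different shares in the 2 kinds. Windows of 300 bases were searched on both strands, 123 overlapped by F4/80-high and 657 by CD11b-high regions, with 32817 windows in all and 9260 overlapped by regions of all 4 lists, called shared windows. AP-1 (TGANTCA), which the longer MAF element GCTGANTCA contains, was in 13% of F4/80-high (95% Wilson interval 8.17% to 20.1%) and 5.63% of CD11b-high windows (4.11% to 7.67%), beside 7.81% of all and 4.54% of shared windows. The nuclear receptor element (AGGTCA) was in 22.0% (15.5% to 30.1%) and 11% (8.79% to 13.6%), beside 16.3% of all and 11.2% of shared windows. A pair of these elements with a spacer of 4 bases, bound by LXR, was in none of either kind and in 0.0152% of all windows. An E-box of MiT/TFE factors (TCACGTG) was in 9.76% (5.67% to 16.3%) and 4.11% (2.84% to 5.91%), and these intervals overlapped. It was in 3.76% of all and 7.07% of shared windows.

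KLF letters (GGGCGTG) were also in a larger share of F4/80-high windows (14.6%, 9.46% to 21.9%) than of CD11b-high windows (9.44%, 7.43% to 11.9%). The same held for IRF (GAAANNGAA), at 8.94% (5.07% to 15.3%) and 5.63% (4.11% to 7.67%), and for both motifs the intervals overlapped. RUNX and NF-kappaB letters were more frequent in CD11b-high than in F4/80-high windows, and those of the PU.1 and ETS core about as frequent. Shares of the remaining motifs searched are not given here. RUNX (TGTGGTT) was in 2.44% of F4/80-high windows (0.833% to 6.93%) and 6.39% of CD11b-high windows (4.76% to 8.53%), beside 5.27% of all and 3.42% of shared windows. The F4/80-high share of RUNX rests on 3 of 123 windows, and these intervals overlapped too. NF-kappaB (GGGANNNCC) was in 13% (8.17% to 20.1%) and 24.7% (21.5% to 28.1%), beside 18.6% of all windows; shared windows, at 24.8%, stood level with the CD11b-high ones. The PU.1 and ETS core was in 17.9% and 17.2%, beside 13.6% of all and 13.9% of shared windows. The median GC content was 58.0% in F4/80-high and 60.0% in CD11b-high windows, beside 52.7% in all windows, and its part in these shares was not tested. Windows of neighbouring starts overlap, so they are not independent. Sequences of regions away from promoters were not analysed here.

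Regions of 1 kind came in stretches, with gaps of at most 10 kb between neighbours. Of the F4/80-high regions, 26.5% lay in 277 such stretches, and of the CD11b-high regions, 35.8% lay in 1620. Besides Sfi1 and the unplaced sequence, the longest F4/80-high stretches were at Frmd4a and Itga9 (6 regions each) and at Cd38, an enzyme that consumes NAD, and Senp8 (5 each). Among the longest CD11b-high stretches after Atf3 were those at Btg1 and Tspoap1 (13 each), Mapkapk3 and Cish (10), Socs3 and Pgs1 (9) and Fos (8). Cish and Socs3 encode inhibitors of cytokine signalling. No stretch named here held a region of the other kind.

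The 3 regions of each kind with the best mean score ranks had an opposing peak centre 205 to 390 bp away. For F4/80-high regions these were 1 on chromosome 17 over 100 kb from a protein-coding gene (chr17:39843612-39843815, tag counts of 156 and 173), 1 near Kbtbd3 and 1 at Napa. Genes of other types were not considered. For CD11b-high regions they were at Leprot (509 and 511), Gsk3b and Rpgrip1. Among regions with no opposing centre within 1000 bp, the best CD11b-high ones were assigned to Nxt1, Atp2b4, Zfp64, Sgms2 and Lrrk2. All 5 were in blood and none was in KC-H. The region of Sgms2, a sphingomyelin synthase (chr3:131474671-131474878), had tag counts of 529 in Ly6CHi-RM and 152 in Ly6CLo-RM. The F4/80-high counterparts, at Dnmt3a, Itga9, Csrp1, Sema6d and Poc1b, were all in KC-H and none was in blood.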

How the data were processed

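Peak lists of 6 groups of sorted mouse myeloid cells, each made by the authors from 2 libraries and named for the irreproducible discovery rate per the labels, were used as deposited. Each line holds a position, a signal (the authors' normalised tag count of the peak) and a score (a whole number the authors' pipeline gave the peak). Tools listed, with no role or version, in the submitters' processing notes are Bowtie2, DESeq2 and HOMER, and the builds are mm10 and GRCm38. Depth, read filters, any shift for the transposase and the scaling of tag counts were not given in the sources used here. Scores and tag counts ranked and described peaks within a list only.

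Coordinates were printed as the lists give them; whether they count from 0 or 1 was not given in the sources used here. Gene positions (21883 protein-coding genes) and promoters came from RefSeq tables of GRCm38.p6. The gene table has no strand or exons, so both gene ends were used, and motifs were searched in promoters in place of regions. Members and gene lists were chosen with earlier results of these data known. All 304 listed genes were in the gene table. Named genes were 15 markers, the 10 genes with the most regions of each kind, up to 4 members of each list with the largest difference, and the regions with the best mean score ranks (3 of each kind, and 5 with no opposing centre within 1000 bp). Further list members were named after their values were seen; not every gene of the rule is named, and values of 1 gene are left out. Shares have 95% Wilson intervals. Alternatives were equal-length lists, the best-scored 50% of a list, an overlap of 50%, absence by distance, leaving out a list, other gene windows and other distances. Code in Python 3.11.15 (numpy 2.4.6, pandas 2.3.3, scipy 1.17.1, matplotlib 3.10.9) was tested on simulated lists.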

Additional observations from a re-analysis of the deposited data

How the results depend on the processing

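No paired analysis was possible because each deposited list pools both libraries of its group and carries no replicate; for the same reason no replicate could be left out. The depth behind absence from a list is unknown. Under each alternative run, the share in KC-H was higher for F4/80-high than for CD11b-high regions, and the share in blood was lower. Equal-length lists gave 4221 F4/80-high and 3693 CD11b-high regions and 2163 and 2132 genes, with shares in KC-H of 72.7% and 16.9%, in blood of 8.96% and 74.4%, and within 1 kb of a gene end of 12.8% and 17.0%. The best 50% of a list gave 438 and 1135 regions and 327 and 846 genes, with 91.8% and 32.0% in KC-H, 94.4% of CD11b-high regions in blood and 13.2% of F4/80-high regions near a gene end. With no opposing centre within 1000 bp the shares were 88.8% and 32.3% in KC-H, 12.5% and 86.5% in blood, and 4.86% and 9.58% near gene ends. An overlap of 50% put 17.6% of F4/80-high regions in blood. Distances of 500 and 2500 bp gave 6.93% and 8.69%, and 19.6% and 24.4%, near gene ends.

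KC-H and blood lists cut to 34293 peaks held 63.5% and 2.20% of F4/80-high regions and 4.39% and 36.4% of CD11b-high regions; a centre within 1000 bp gave 92.2%, 33.7%, 44.9% and 89.9%. Without KC-N there were 18682 CD11b-high regions, 80.0% and 53.7% in KC-H, 87.1% of CD11b-high regions in blood, and 14.7% and 17.4% near gene ends. Without KN-RM there were 9580 F4/80-high regions and 3028 such genes, 70.8% and 38.1% in KC-H, and 12.8% and 15.1% near gene ends. Without Ly6CHi-RM there were 4160 and 16618 regions, 28.6% of CD11b-high regions in KC-H, 39.3% and 62.9% in blood, and 12.7% of F4/80-high regions near gene ends. Without Ly6CLo-RM there were 21328 CD11b-high regions, 29.2% of them in KC-H, 18% and 81.7% in blood, and 13% and 12.9% near gene ends.

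The F4/80-high share of a list's regions, minus that of all genes (percentage points), changed sign for 12 of 22 lists under some setting. With equal-length lists it was -7.47 for TGF-beta, 0.921 for AP-1, -1 for myeloid factors, 22.1 for T and NK cells and -52.9 for hepatocytes. With the best 50% it was -3.52 for TGF-beta, 14.3 for AP-1, -13.1 for myeloid factors and -28.5 for iron. By distance it was -17.0 for stellate cells, and with a 20 kb window -1.60 for myeloid factors. Without KC-N it was -0.176 for hepatocytes; without KN-RM -0.351 for myeloid factors, -4.94 for chemokines, -1.66 for NF-kappaB, 16.0 for B cells and -1.11 for stellate cells. Without Ly6CHi-RM it was -7.13 for antigen presentation, and without Ly6CLo-RM 5.61 for AP-1 and 0.262 for dendritic cells.

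F4/80-high minus CD11b-high regions changed sign for 13 of 100 genes. With equal-length lists it was 1 for Ly6c2, Gpnmb, Cd9 and Klf6 and 2 for Scarb1, Tnfaip3, Klrb1c and Acta2. With the best 50% it was 1 for Ccr1 and Acta2. Without KC-N and without Ly6CLo-RM it was -1 for Cd86. Without KN-RM it was 4 for Kcna2 and Cd9 and 1 for Blk, without Ly6CHi-RM 1 for Gpnmb, and by nearest gene end -2 for Sfi1. The cause of these changes was not tested.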
